A study of Mus musculus with 2 samples.

Results

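Genes of the Wnt pathway were read in RNA of lung epithelial cells from a tumour-bearing and a tumour-free group of mice. The members were the rows of both expression tables whose symbol is a Wnt ligand, a Frizzled receptor (Fzd), a secreted Wnt antagonist of the Sfrp or Dkk family or Wif1, an R-spondin (Rspo), or one of the named co-receptors, ligases, cytoplasmic proteins and transcription factors of the pathway. The rule used symbols only and no measured value. It found 48 of the 15113 genes in the tables. Of these, 41 had at least 1 read in the tumour-free library, 46 in the tumour-bearing library and 39 in both. A row missing from one table counted as 0, and pathway genes with no row in either table were not analysed here.

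The tumour-free library, the control, came from wild-type C57BL/6 mice without a tumour. The other came from C57BL/6 mice that had received 1000000 LLC cells carrying luciferase (a mouse line of Lewis lung carcinoma) under the skin of the back, as a model of spontaneous metastasis to the lung. Animals of both groups were 6 to 8 weeks old, and both libraries were made from lung cells sorted as CD45-negative and Sftpc-positive. How many animals stand behind a library, when they were taken after injection and what detected Sftpc was not stated in the labels. Each group held 1 library, so no difference has a replicate check and no test of the conditions was possible. Intervals are exact 95% intervals that cover counting error only, and sequenced reads are copies made by PCR rather than independent molecules.

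Sftpc, the surfactant protein of alveolar type 2 (AT2) cells, was the gene with the highest RPKM (reads scaled to the length of the gene and to the size of the library) in both libraries, and its share of summed RPKM was 18.6% in the tumour-free and 11.2% in the tumour-bearing library. The 12 AT2 markers had a median log2 ratio of -0.56, with 2 at least 2-fold lower and 1 higher, and sums of 149443 and 100157 RPKM. A log2 ratio above 0 was found for 4 of the 12 (53.8% of all genes), and the higher one was Sftpd, at 3633 and 7410 RPKM. Sftpc made up much of both sums, at 94902.5 and 54968.1 RPKM. Ptprc, which encodes CD45, had 12 reads in the tumour-free and 2 in the tumour-bearing library, of estimated totals of 5335352 and 5387114. Of 12 leukocyte markers 9 had a row and 6 stood at 1 RPKM or more, of which 3 were at least 2-fold higher and 1 lower, with sums of 14.2 and 45.9 RPKM. C1qb, C1qc and Cd79a were at 0 in the tumour-free library and S100a9 at 0 in the tumour-bearing one. Markers of several classes of other lung cells were higher in the tumour-bearing library, while airway markers were mixed. All 12 fibroblast markers had a row, and 10 stood at 1 RPKM or more in either library. Of these, 8 were at least 2-fold higher (9.38% of all genes). Their class had a summed level of 84.2 RPKM in the tumour-free and 662 RPKM in the tumour-bearing library. Lum and Tcf21 were at 0 in the tumour-free library. Of 13 endothelial markers 11 were at least 2-fold higher (9.38% of all genes), with sums of 41.6 and 182 RPKM. The others, Kdr at 187 and 100 reads and Tek at 92 and 79 reads, were lower. The sums were 3.85 and 20.03 RPKM for 5 mesothelial markers, of which 4 had a row and Upk3b was at 0 in the tumour-free library. Most of that difference was Msln, at 1.49 and 16.6 RPKM, the only one past 2-fold. For the smooth muscle and pericyte class the sums were 3.82 and 15.3 RPKM over 9 markers, of which 8 had a row and Acta2, Cnn1, Cspg4 and Myh11 were at 0 in the tumour-free library and had between 1 and 16 reads in the other. Of the 4 muscle and pericyte markers at the filter, Pdgfrb and Tagln passed 2-fold and Notch3 was at 54 and 48 reads. Alveolar type 1 (AT1) cells are the thin cells of gas exchange. Each of their 10 markers was above the tumour-free level (53.8% of all genes), 6 of them by 2-fold or more (9.38% of all genes). The sums were 1771 and 2904 RPKM. Among 6 club, 6 ciliated and 5 basal markers the median log2 ratios were -0.51, 0.08 and -0.52, with 1 higher and 1 lower past 2-fold for club, 0 for ciliated and 1 each way for basal cells. C1qb, Lum, Pdgfra, Cldn5, Emcn, Gpihbp1, Vwf, Pdgfrb, Tagln and Krt14 reached 1 RPKM only in the tumour-bearing library, where they are high. The counts of higher leukocyte, fibroblast, endothelial, muscle and pericyte, and basal markers include them and are therefore no support. The part of these cells in the values of the Wnt genes was not tested. In bulk RNA, fewer cells of a type and less RNA per cell cannot be told apart.

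Wnt proteins are secreted signals to which the enzyme Porcn attaches a lipid and which Wls carries to the cell surface. At a receiving cell they bind a Frizzled receptor together with Lrp5 or Lrp6, which stops a complex of Apc and Axin from having beta-catenin (Ctnnb1) destroyed, so that beta-catenin can act with factors of the TCF/LEF family in the nucleus. Rnf43 and Znrf3 remove Frizzled receptors from the surface, R-spondins bound to Lgr receptors block that removal, and Axin2, Nkd1, Rnf43 and Znrf3 are themselves switched on by the pathway as brakes. In the mouse lung, Wnt signals from neighbouring fibroblasts maintain AT2 cells that act as stem cells, and Axin2 is used to mark AT2 cells that receive them.

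In the tumour-bearing library the brake gene Nkd1 was 2.14-fold higher and the gene of beta-catenin itself 1.92-fold lower, while Axin2 had a ratio of 0.889 with an interval that included 1. Several ligands and antagonists that were scarce in the tumour-free library, Wnt5a, Wnt7a, Sfrp1 and Dkk3, were higher, beside the markers of other cell types given above. The Frizzled genes had nearly the same summed level in both libraries but a different make-up. Of the 48 members, 35 stood at 1 RPKM or more in either library. On the scale of log2((tumour-bearing RPKM + 1)/(control RPKM + 1)), 7 of these 35 were at least 2-fold higher, against 9.38% of all 12288 genes at that level. None was at least 2-fold lower (0 of 35), against 6.53% of all genes. The median log2 ratio was 0.27 over the 35 members and 0.06 over all genes.

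The count of higher members depended on how low genes entered it. Of the 7, 6 were below 5 RPKM in both libraries, and 5 reached 1 RPKM in the tumour-bearing library only, so that they passed the filter through the library in which they were high. Among the 27 members at 1 RPKM or more in both libraries, 2 were at least 2-fold higher (5.92% of all such genes) and 0 at least 2-fold lower (4.13% of all such genes), with a median log2 ratio of 0.08 against 0.05 over all such genes. Of the 15 members at 10 RPKM or more in either library, only Nkd1 was past 2-fold on the log2(RPKM + 1) scale. The share of all such genes past 2-fold in either direction was 11.7%. By counting error alone, the interval of the ratio lay above 1 for 18 of 35 members (33.1% of all genes). It lay below 1 for 10 of 35 (26.4% of all genes) and included 1 for 7. Among the 18, Rspo1, Wnt5a, Wnt7a, Wnt9a, Fzd4 and Sfrp1 passed the filter only through the tumour-bearing library, where they are high. Lgr6, among the 10, passed it only through the tumour-free library. These interval counts are therefore no support.

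**Figure D1:**
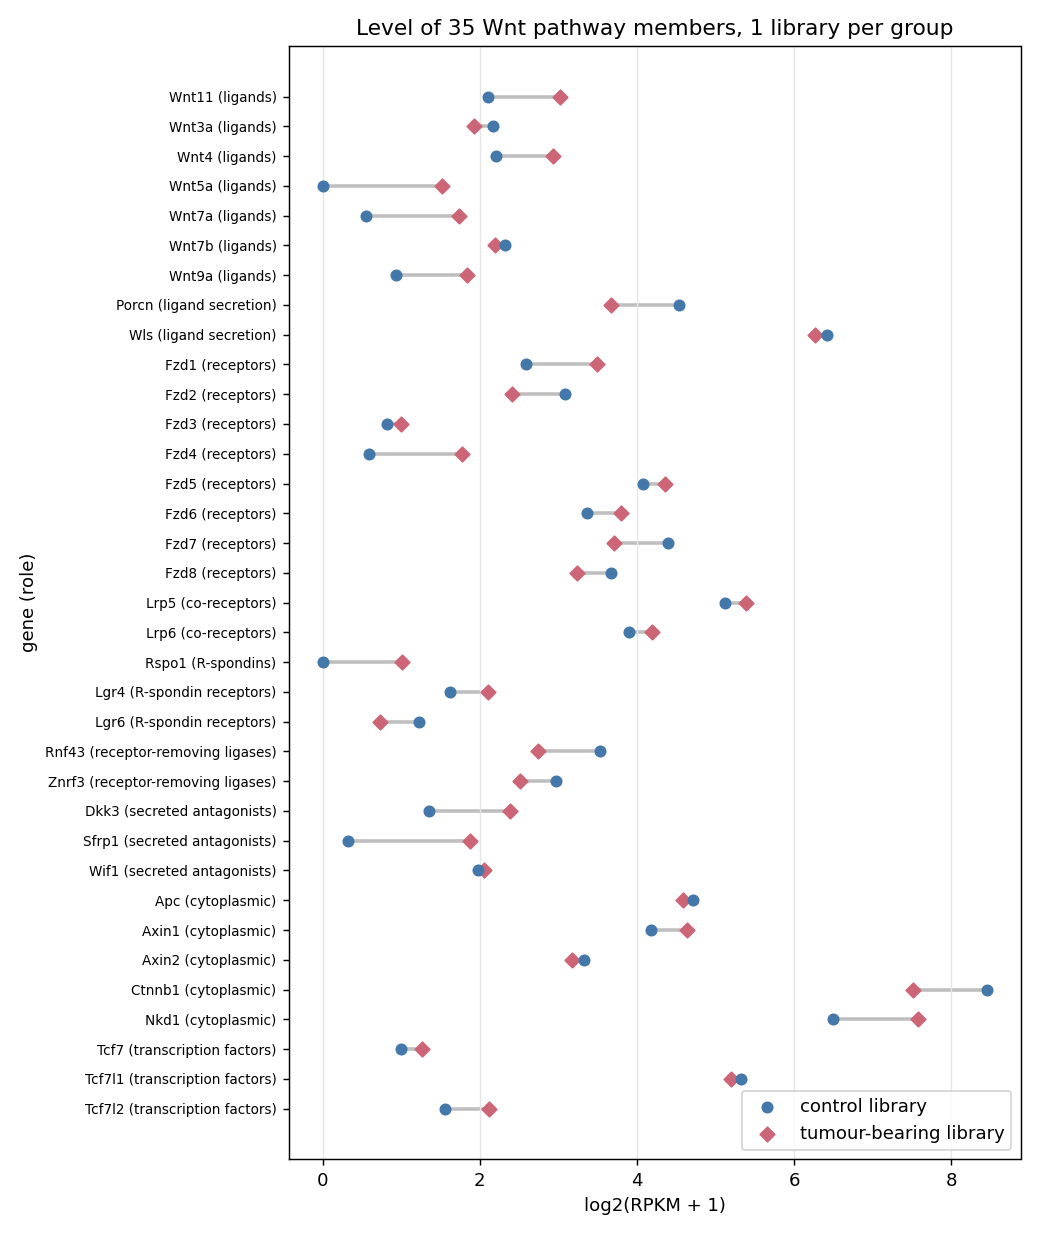
Level of each of the 35 members at 1 RPKM or more in either library, as log2(RPKM + 1) on the horizontal axis, in the tumour-free library (circles) and the tumour-bearing library (diamonds), ordered by role. Ctnnb1 is the highest in the tumour-free library and Nkd1 the highest in the tumour-bearing library, and Wnt5a and Rspo1 are at 0 in the tumour-free library.

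**Figure D2:**
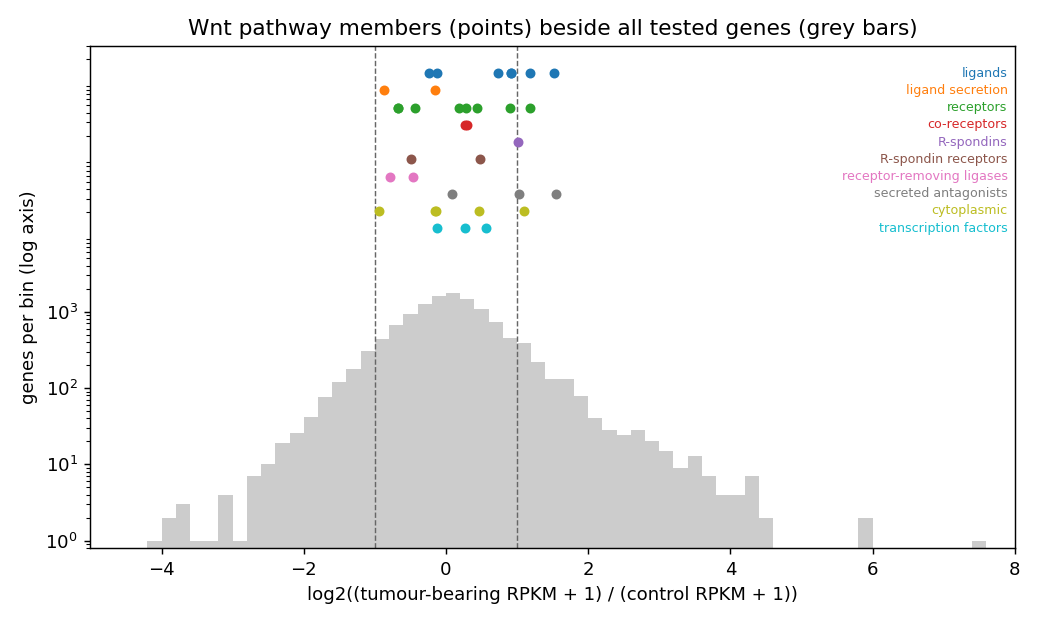
Log2 ratio of the 35 members (points, one line per role) above the distribution of all 12288 tested genes (grey bars, genes per bin on a log axis), with dashed lines at 2-fold. The members lie between Ctnnb1 at -0.94 and Sfrp1 at 1.54, inside the span of all genes.

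Wnt ligand genes were few and low in the tumour-free library and had a higher summed level in the tumour-bearing library. The sum of the 12 ligand genes was 16.9 RPKM in the tumour-free and 29.5 RPKM in the tumour-bearing library, 1.75 times as much. The 2-fold counts here use the log2(RPKM + 1) scale. Of the 7 ligands at 1 RPKM or more in a library, 2 were at least 2-fold higher (9.38% of all genes), 0 lower (6.53% of all genes) and 5 within 2-fold. Both of these, Wnt5a and Wnt7a, passed the filter only through the tumour-bearing library, where they are high, so the count is no support. Wnt4, Wnt11, Wnt3a and Wnt7b, all between 3.29 and 4.005 RPKM in the tumour-free library, were the main ligand genes there. The first 2 were higher, the others had intervals that included 1, and Wnt11 and Wnt4 led in the tumour-bearing library.

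Wnt11, a ligand known mainly for signalling that does not use beta-catenin, was at 3.29 RPKM (49 reads) in the tumour-free and 7.12 RPKM (107 reads) in the tumour-bearing library. This was 2.16-fold higher with an interval of 1.53 to 3.10, at a log2 ratio of 0.92, which is within 2-fold once 1 RPKM is added. Wnt4 was at 3.63 RPKM (74 reads) and 6.65 RPKM (137 reads), 1.83-fold higher (1.37 to 2.47). Wnt7b, a ligand of the lung epithelium, was at 4.005 and 3.60 RPKM, and Wnt3a, which signals through beta-catenin, at 3.49 and 2.79 RPKM. Their intervals, 0.637 to 1.26 and 0.520 to 1.23, both included 1. The intervals of Wnt11 and Wnt3a did not overlap.

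Other ligands were close to the detection limit in the tumour-free library. Wnt5a (chromosome 14, 28504543 to 28527448 on mm10), which lung fibroblasts make and which acts largely without beta-catenin, had 0 reads in the tumour-free library and 44 reads, 1.88 RPKM, in the tumour-bearing library. Against a floor of 3 reads per library it was at least 14.5-fold higher with its 44 reads taken as exact, and the exact interval, which covers counting error in both libraries, had a lower end of 11.3. Wnt7a (chromosome 6, 91363981 to 91411353) was at 0.472 RPKM (8 reads) and 2.34 RPKM (40 reads), 4.95-fold higher (2.29 to 12.2), and Wnt9a at 0.904 RPKM (16 reads) and 2.57 RPKM (46 reads), 2.85-fold higher (1.58 to 5.39). Of the fibroblast markers, Col1a2 had 29 and 1157 reads in the same libraries, Inmt 89 and 169, and Col13a1 8 and 6. The AT1 gene Hopx had 348 and 1313 reads, and the part of either cell type in these ligands was not tested. Wnt10a, Wnt10b, Wnt5b and Wnt6 had at most 2 reads in the tumour-free library and between 5 and 8 in the tumour-bearing library. Wnt2b went the other way, with 12 reads and 3 reads, a ratio of 0.248 (0.0448 to 0.917). These 5 genes stayed below 1 RPKM in both libraries.

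The 2 genes needed to secrete any Wnt were both lower. Porcn (chromosome X, 8193846 to 8206548), the membrane enzyme that attaches the lipid, was at 22.2 RPKM (225 reads) in the tumour-free and 11.7 RPKM (120 reads) in the tumour-bearing library, lower by a factor of 1.89 (1.51 to 2.38). Wls, the carrier, was far more abundant and differed little, at 84.5 and 76.1 RPKM, 1.11-fold lower (1.02 to 1.20). Neither passed 2-fold, while the summed ligand level was higher in the same library. The 12 AT2 markers given above had a median log2 ratio of -0.56, with 4 of them above 0.

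**Figure D3:**
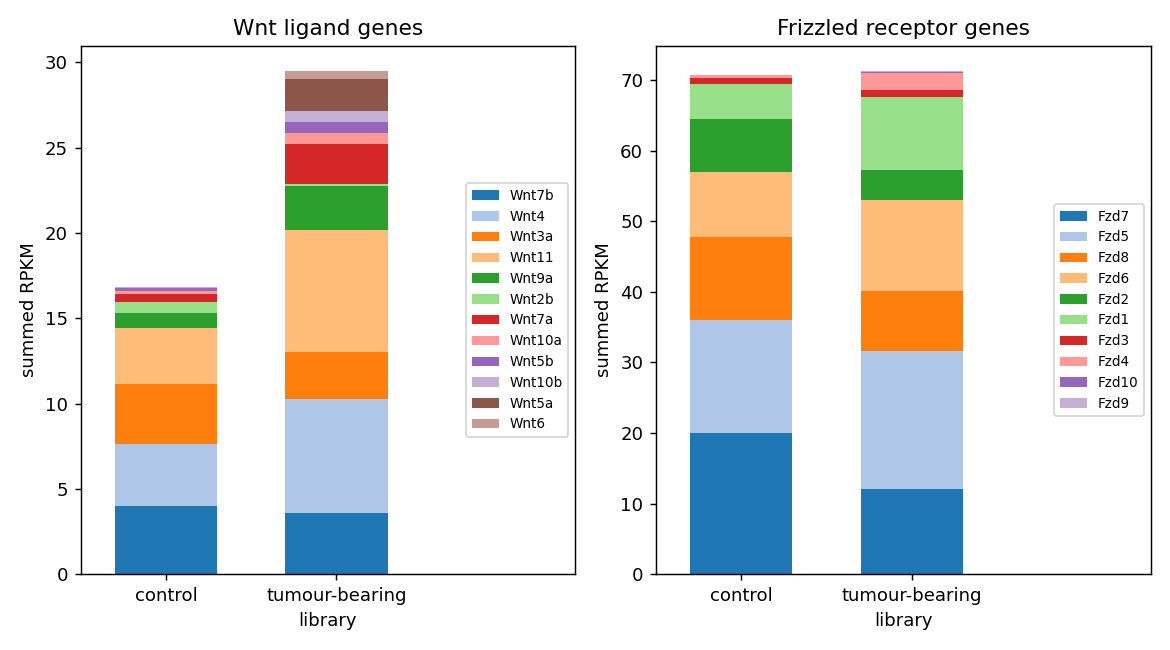
Summed RPKM of the 12 Wnt ligand genes (left) and the 10 Frizzled receptor genes (right) in the tumour-free and tumour-bearing libraries, with 1 bar per library and the segments stacked by gene. The ligand sum is 16.9 and 29.5 RPKM and the receptor sum 70.7 and 71.3 RPKM, with Fzd7 the largest receptor segment in the tumour-free library and Fzd5 in the tumour-bearing library.

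The Frizzled genes, which encode the receptors, had a summed level of 70.7 RPKM in the tumour-free and 71.3 RPKM in the tumour-bearing library, and single genes differed in opposite directions. Of the 8 at 1 RPKM or more in a library, 5 had a log2 ratio above 0 (53.8% of all genes) and 3 below. Only Fzd4 passed 2-fold on the log2(RPKM + 1) scale (15.9% of all genes in either direction). Both counts were near the share over all genes. Fzd3 and Fzd4 passed the filter only through the tumour-bearing library, where they are higher, so the counts are no support. Fzd7 (chromosome 1, 59482147 to 59486955) was the highest in the tumour-free library at 20.02 RPKM (517 reads) and was at 12.1 RPKM (316 reads) in the tumour-bearing library, lower by a factor of 1.65 (1.43 to 1.91). It made up 28.3% of the Frizzled sum in the tumour-free library and 17.01% in the tumour-bearing library. Fzd2 and Fzd8 were lower as well, at 7.49 and 4.30 RPKM (1.74-fold, 1.32 to 2.31) and at 11.8 and 8.43 RPKM (1.39-fold, 1.13 to 1.73).

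Fzd5, the highest Frizzled gene in the tumour-bearing library, was at 15.9 RPKM (589 reads) in the tumour-free library and 19.5 RPKM (729 reads) there, 1.23-fold higher (1.10 to 1.37). Fzd6 was at 9.26 and 12.9 RPKM, 1.40-fold higher (1.16 to 1.68), and Fzd1 at 4.99 RPKM (117 reads) and 10.2 RPKM (242 reads), 2.05-fold higher (1.64 to 2.58). The log2 ratio of Fzd1 was 0.91, which is within 2-fold once 1 RPKM is added. Fzd1 and Fzd7, close relatives in sequence, thus lay on opposite sides of 1. Fzd4 (chromosome 7, 89404366 to 89410110), a receptor known for its role in retinal and brain vessels, was at 0.509 RPKM (10 reads) and 2.42 RPKM (48 reads), 4.75-fold higher (2.37 to 10.5). Of the endothelial markers, Cldn5 had 6 and 147 reads in the same libraries, while Kdr had 187 and 100 and Tek 92 and 79. The part of endothelial cells in Fzd4 was not tested. Fzd3 was near 1 RPKM in both libraries, and Fzd9 and Fzd10 had 0 reads in the tumour-free library and 2 reads each in the tumour-bearing library.

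Both co-receptor genes were slightly higher by similar factors. Lrp5 was at 33.7 and 40.8 RPKM, 1.21-fold higher (1.11 to 1.32), and Lrp6 at 13.9 and 17.3 RPKM, 1.25-fold higher (1.13 to 1.38). Lrp5 took 70.9% of their sum in the tumour-free library and 70.2% in the tumour-bearing library, so the balance between these 2 genes was nearly the same in both.

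Among the genes that set how many receptors stay on the surface, both ligase genes were lower, Lgr4 was higher and the rest were scarce. Rnf43, a ubiquitin ligase that removes Frizzled, was at 10.5 RPKM (244 reads) in the tumour-free and 5.69 RPKM (133 reads) in the tumour-bearing library, lower by a factor of 1.85 (1.49 to 2.31). Its paralog Znrf3 was at 6.84 RPKM (230 reads) and 4.71 RPKM (160 reads), 1.45-fold lower (1.18 to 1.79). Neither passed 2-fold. The part of AT2 cells, whose markers had a median log2 ratio of -0.56, in the values of Fzd7, Rnf43 and Znrf3 was not tested. Among the receptors for R-spondins, Lgr4 was at 2.07 RPKM (56 reads) and 3.30 RPKM (90 reads), 1.59-fold higher (1.13 to 2.26). Lgr6 was at 1.35 RPKM (26 reads) and 0.666 RPKM (13 reads), with a ratio of 0.495 (0.234 to 0.999), and Lgr5, the intestinal stem cell marker, had 0 and 6 reads. Rspo1 was the only R-spondin gene with a row, with 0 reads in the tumour-free library and 10 reads, 1.01 RPKM, in the tumour-bearing library. Against the floor of 3 reads it was at least 3.30-fold higher with its 10 reads taken as exact, and the exact interval had a lower end of 2.22. It stood barely above the 1 RPKM filter. Of the mesothelial markers, Msln had 17 and 191 reads in the same libraries, Upk1b 20 and 28, Upk3b 0 and 4 and Wt1 4 and 2, and the part of mesothelial cells in Rspo1 was not tested.

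Secreted antagonists, which bind Wnts or Lrp co-receptors outside the cell, were low in both libraries, with a summed level of 5.90 RPKM in the tumour-free and 11.0 RPKM in the tumour-bearing library. Sfrp1 (chromosome 8, 23411383 to 23449632), a soluble protein with a Frizzled-like Wnt-binding domain, was at 0.256 RPKM (6 reads) in the tumour-free and 2.66 RPKM (63 reads) in the tumour-bearing library. It was 10.4-fold higher (4.52 to 29.4) and had the highest log2 ratio of the 35 members, 1.54, on the log2(RPKM + 1) scale. This order depends on the added 1 RPKM: with a pseudocount of 0.1, Wnt5a was at 4.30 and Sfrp1 at 2.96. Dkk3, a divergent member of its family, was at 1.56 RPKM (28 reads) and 4.20 RPKM (76 reads), 2.69-fold higher (1.72 to 4.31). Its log2 ratio of 1.02 lay just past the 2-fold line and lay within it under 4 of the alternative settings below. Of the fibroblast markers, Col1a2 had 29 and 1157 reads, Inmt 89 and 169, and Col13a1 8 and 6. The part of fibroblasts in both antagonists was not tested.

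Wif1, which binds Wnts directly, was the leading antagonist gene of the tumour-free library and differed little, at 2.93 RPKM (35 reads) and 3.15 RPKM (38 reads), a ratio of 1.08 (0.661 to 1.75). Sfrp4 had 0 and 7 reads and Sfrp5 had 3 and 0. Dkk1 and Dkk2, the members that bind Lrp co-receptors, had 6 and 3 reads and 7 and 1 reads, with intervals of 0.0801 to 2.32 and 0.00314 to 1.10. The antagonists with more reads in the tumour-bearing library were therefore Sfrp1, Sfrp4, Dkk3 and, within counting error, Wif1.

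Inside the cell, the 2 most abundant members differed in opposite directions. Ctnnb1 (chromosome 9, 120933400 to 120960507), the gene of beta-catenin, was at 350 RPKM (6806 reads) in the tumour-free and 182 RPKM (3570 reads) in the tumour-bearing library. It was 1.92-fold lower with an interval of 1.85 to 2.005, at a log2 ratio of -0.94, just inside the 2-fold line, beside a median of -0.56 over the AT2 markers, whose part was not tested. Its rank by RPKM among all genes of a library was 138 in the tumour-free and 317 in the tumour-bearing library. Beta-catenin also serves in cell junctions, and the RNA level does not give the amount or the place of the protein. Exons of Ctnnb1 share 759 bases with Ulk4 on the opposite strand, and whether reads were counted by strand was not stated.

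Nkd1 (chromosome 8, 88521342 to 88594887), which encodes a protein that binds Dishevelled and dampens Wnt signalling, was at 88.8 RPKM (2045 reads) in the tumour-free and 190 RPKM (4426 reads) in the tumour-bearing library. It was 2.14-fold higher (2.03 to 2.26). On the log2(RPKM + 1) scale it was the only member above 5 RPKM that passed 2-fold. The plain ratios of Wnt11 and Fzd1 were 2.16 and 2.05. The rank of Nkd1 was 602 in the tumour-free and 298 in the tumour-bearing library. Its relative Nkd2 had 4 reads in the tumour-free and 0 in the tumour-bearing library. Ctnnb1 was thus 3.94 times as abundant as Nkd1 per length in the tumour-free library, and Nkd1 slightly the higher of the pair in the tumour-bearing library.

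The genes of the destruction complex differed less. Axin1, its scaffold, was at 17.2 RPKM (349 reads) and 24.0 RPKM (492 reads), 1.40-fold higher (1.21 to 1.61). Axin2, the scaffold that the pathway induces, was at 9.02 RPKM (206 reads) and 8.03 RPKM (185 reads), a ratio of 0.889 (0.725 to 1.09). Apc was at 25.3 RPKM (1679 reads) and 22.9 RPKM (1539 reads), 1.10-fold lower (1.03 to 1.18). The 2 Axin genes therefore lay on different sides of 1, though the interval of Axin2 included it.

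Among the nuclear factors Tcf7l1, which acts mainly as a repressor of Wnt target genes, was by far the most abundant, at 39.1 RPKM (581 reads) in the tumour-free and 35.6 RPKM (534 reads) in the tumour-bearing library, a ratio of 0.910 (0.808 to 1.03). It made up 93.0% of the summed level of the 3 factor genes in the tumour-free library and 88.2% in the tumour-bearing library. Tcf7l2 was at 1.94 RPKM (43 reads) and 3.34 RPKM (75 reads), 1.73-fold higher (1.17 to 2.57). Tcf7 had 12 and 17 reads, with an interval of 0.632 to 3.22.

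**Figure D4:**
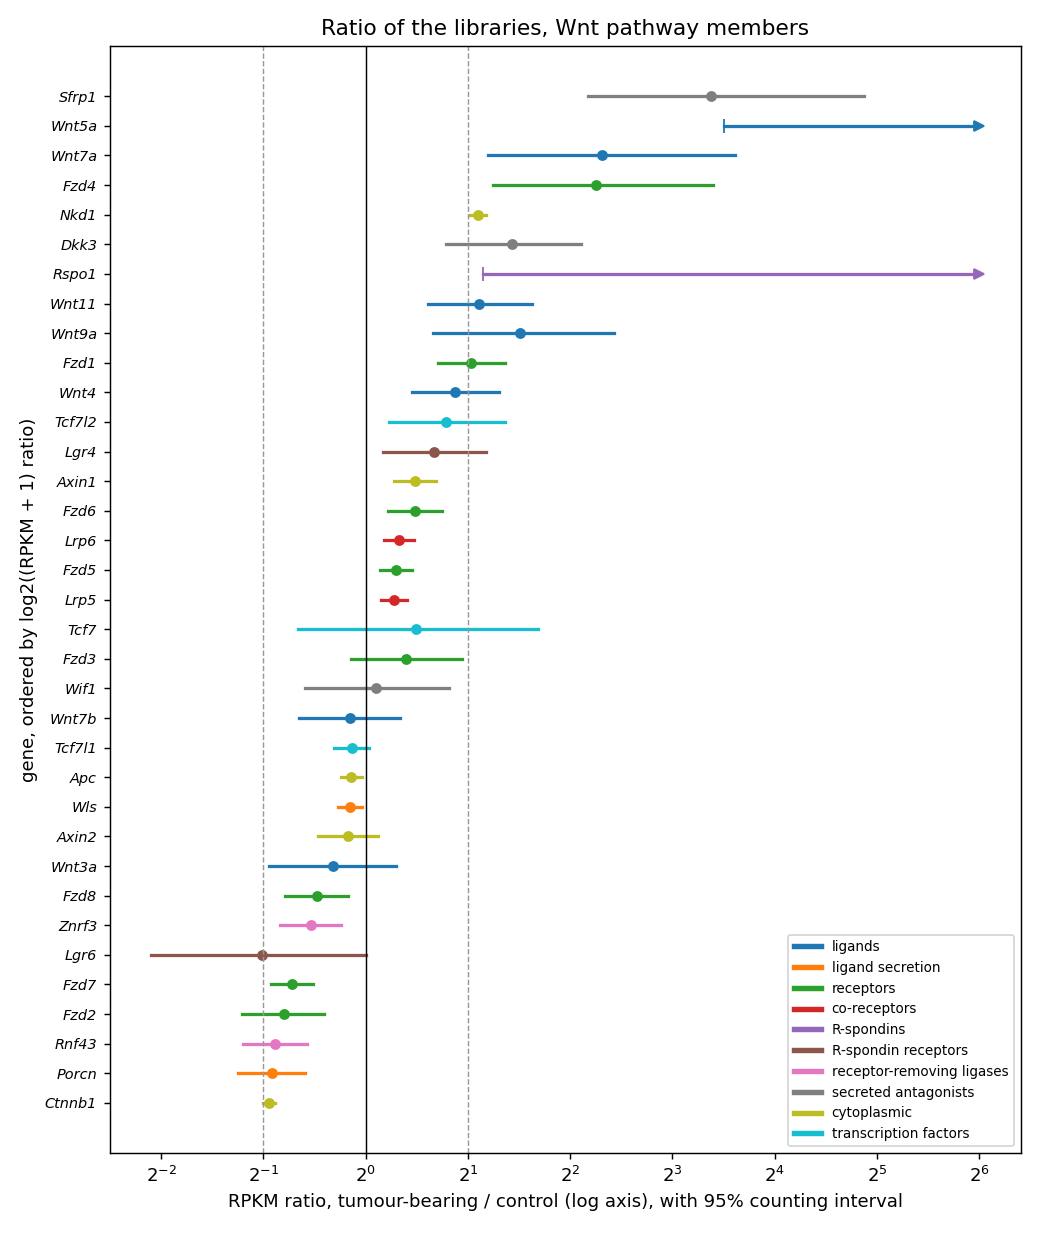
Ratio of RPKM, tumour-bearing over control, on a log axis for the 35 members at 1 RPKM or more, coloured by role, with exact 95% counting intervals and dashed lines at 2-fold. Arrows mark Wnt5a and Rspo1, which had 0 reads in the tumour-free library and whose intervals have no upper end; Nkd1 and Ctnnb1 have the narrowest intervals on either side of 1.

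Genes known to be induced by Wnt signalling differed in both directions, with the most marked ratios below 1. The list of 24 such genes outside the members had 20 with a row and 14 at 1 RPKM or more in a library. Of these 14, 0 were at least 2-fold higher (9.38% of all genes), 4 at least 2-fold lower (6.53% of all genes) and 10 within 2-fold, with a median log2 ratio of -0.16. A log2 ratio above 0 was found for 6 of the 14 (53.8% of all genes), and the genes named here, apart from Fgf18, are those of the greatest absolute log2 ratio among genes reaching 5 RPKM. The 12 AT2 markers had a median log2 ratio of -0.56, with 4 of them above 0, and the part of AT2 cells in these genes was not tested. The list of Wnt-induced genes was assembled from studies of several tissues, and Myc and Id2 also respond to many other signals. It was chosen with earlier results of these data known, so its counts are no independent support. Sp5, a transcription factor gene that beta-catenin and TCF factors switch on directly, was at 13.0 RPKM (146 reads) in the tumour-free and 2.30 RPKM (26 reads) in the tumour-bearing library, lower by a factor of 5.67 (3.72 to 8.97). Notum, a secreted enzyme that strips the lipid from Wnts and is induced as a brake, was at 8.17 RPKM (88 reads) and 1.84 RPKM (20 reads), 4.44-fold lower (2.71 to 7.62).

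Myc, a growth regulator, was at 21.4 RPKM (274 reads) and 7.12 RPKM (92 reads), 3.01-fold lower (2.37 to 3.85). Id2, an inhibitor of helix-loop-helix factors, was at 183 and 95.05 RPKM, 1.93-fold lower (1.75 to 2.12), within 2-fold. The fourth gene past 2-fold was Fgf18, a growth factor named after its values were seen, with 35 and 10 reads, 3.53-fold lower (1.71 to 8.00). Sp5, Notum, Rnf43 and Znrf3 were thus lower, Axin2 had an interval that included 1 and Nkd1 was higher, so genes that the pathway is known to induce did not share 1 direction in these libraries.

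**Figure D5:**
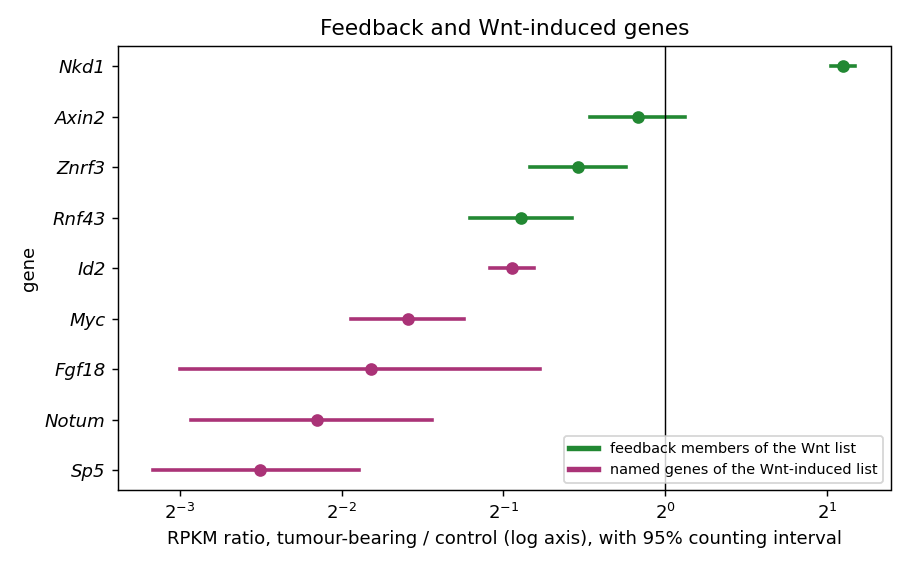
Ratio of RPKM, tumour-bearing over control, on a log axis with exact 95% counting intervals, for 4 feedback genes among the members (green) and the 5 genes named from the Wnt-induced list (purple). From that list, 6 of 14 genes at the filter, not drawn, had a log2 ratio above 0. Of the genes drawn, Nkd1 alone is above 1, at 2.14, Axin2 is at 0.889 with an interval that includes 1, and the others are below 1 down to Sp5 at 0.176.

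Other genes of the pathway differed little as a group. Of 63 such genes outside the members, 60 had a row and 54 stood at 1 RPKM or more in a library. Of these 54, 3 were at least 2-fold higher (9.38% of all genes), 2 at least 2-fold lower (6.53% of all genes) and 49 within 2-fold, with a median log2 ratio of 0.05 and summed levels of 808 and 832 RPKM. Notum, given above, is in this list too and was 1 of the 2 lower genes. The other was Tle2, a co-repressor that TCF factors recruit, at 39.9 RPKM (637 reads) and 14.4 RPKM (232 reads), 2.77-fold lower (2.38 to 3.24).

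Gpc3, a heparan sulfate proteoglycan that binds Wnts, was at 6.76 RPKM (82 reads) and 18.3 RPKM (224 reads), 2.71-fold higher (2.09 to 3.53). Cby1, an inhibitor of beta-catenin, was at 13.6 and 6.80 RPKM, 1.99-fold lower (1.35 to 2.98), within 2-fold on the log2(RPKM + 1) scale. The other 2 higher genes, named after their values were seen, were Prickle1, of the planar polarity branch, with 9 and 45 reads, and Adgra2, a co-receptor for Wnt7 ligands in brain vessels, with 15 and 123 reads. Both stayed below 5 RPKM and passed the 1 RPKM filter only through the tumour-bearing library, where they are high. The count of higher genes in this list is therefore no support.

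Promoter sequence was examined for the letters that TCF/LEF factors bind, CTTTGAA or CTTTGAT on either strand, in windows from 250 bases before to 50 after a gene start, taken from RefSeq on GRCm38.p6. Of the 48 members, 31 had a window, 38 windows in all, and 3 windows (7.89%) of 3 members held a match, against 8.65% of all 32851 windows and 5.80% of the 12457 windows of all tested genes. The windows of the members were richer in G and C, with a median of 68.3% against 60.7% for tested genes. The matches lay in Wnt11, 51 bases before the start, in a window of Dkk1, 117 bases before, and in 1 of 3 windows of Wnt5b, 71 bases before. Dkk1 and Wnt5b were below 1 RPKM in both libraries. The windows of members thus include genes below the filter, which those of tested genes do not, so these sets are unlike. A match is a run of letters and was not tested for binding. The Wnt11 window is shown in full because Wnt11 was the leading ligand gene of the tumour-bearing library, and those of Nkd1 and Axin2 because they are feedback genes whose levels differed from each other in these libraries. The Nkd1 and Axin2 windows hold no match, and each lies inside the gene's annotated span. Capitals mark the match, and all runs are 5′ to 3′ on the strand of the gene.
Wnt11, chr7:98834862-98835161, plus strand: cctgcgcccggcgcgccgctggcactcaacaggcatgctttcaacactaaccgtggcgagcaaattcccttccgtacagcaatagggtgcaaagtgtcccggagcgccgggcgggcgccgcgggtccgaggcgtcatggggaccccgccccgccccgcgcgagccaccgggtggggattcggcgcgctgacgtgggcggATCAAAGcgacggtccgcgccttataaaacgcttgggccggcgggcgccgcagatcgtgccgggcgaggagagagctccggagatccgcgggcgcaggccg
Dkk1, chr19:30549597-30549623, minus strand: cctcccaaagCTTTGAAatcccatccc
Wnt5b, chr6:119449441-119449467, minus strand: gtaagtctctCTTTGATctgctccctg
Nkd1, chr8:88527383-88527682, plus strand: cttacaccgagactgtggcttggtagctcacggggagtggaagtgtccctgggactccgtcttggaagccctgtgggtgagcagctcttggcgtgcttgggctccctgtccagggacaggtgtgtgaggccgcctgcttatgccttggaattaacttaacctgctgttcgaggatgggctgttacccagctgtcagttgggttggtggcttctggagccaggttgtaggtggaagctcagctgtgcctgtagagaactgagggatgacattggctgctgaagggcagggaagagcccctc
Axin2, chr11:108920099-108920398, plus strand: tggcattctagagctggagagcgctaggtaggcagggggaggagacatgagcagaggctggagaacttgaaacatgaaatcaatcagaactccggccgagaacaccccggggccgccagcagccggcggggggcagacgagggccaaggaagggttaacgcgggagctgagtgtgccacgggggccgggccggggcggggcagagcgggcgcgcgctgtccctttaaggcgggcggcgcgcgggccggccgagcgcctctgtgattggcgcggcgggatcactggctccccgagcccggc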

How the data were processed

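RNA of sorted mouse lung epithelial cells was measured in 2 libraries, 1 per group. The authors deposited 1 table per library with GeneID, symbol, description and RPKM, per the file headers. The mm10 build and Trimmomatic are named in the submitters' processing notes. An aligner, counter, annotation or strand setting was not given in the sources used here. Members and gene lists were chosen with earlier results of these data known.

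RPKM was used as deposited. Whole reads were recovered from it: the last 60 rows of each table gave whole gene lengths at totals of 5335352 and 5387114 reads, for 60 of 60 rows in each. Rows run in descending order of reads (39 of 28119 neighbouring pairs were out of order), which set the multiples left undecided. Of 15113 genes, 15066 (99.7%) got a read number, which was not set for the 20 most-read rows of either table, such as Sftpc. All lay within 0.02 read of a whole number, which the recovery imposes, so this is no check of it. Of 14114 recovered genes with a GENCODE M21 transcript of the symbol, 1803 (12.8%) had an implied length equal to a transcript length. The totals are estimates and not the authors' values, and the order was used in the recovery. The procedure was tested on simulated data.

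Genes at 1 RPKM or more in either library were compared as log2((tumour-bearing RPKM + 1)/(tumour-free RPKM + 1)), with a size rule of 2-fold. Adding 1 makes ratios of low genes smaller, so each fold printed is the plain RPKM ratio, with an exact conditional 95% interval (Clopper-Pearson) from reads. A gene at 0 reads was set against a floor of 3 reads. All members could be named, as could, from each other list, at most 4 genes of the greatest absolute log2 ratio among those reaching 5 RPKM. Coordinates and current symbols came from RefSeq on GRCm38.p6, the assembly mm10 denotes, by GeneID. Exons of 8 members overlap a gene on the opposite strand in GENCODE M21: Axin2, Ctnnb1, Wnt5a, Wnt7b, Wnt11, Fzd5, Fzd6 and Tcf7l1. Reads of such pairs cannot be told apart unless they were counted by strand, which was not stated. Python 3.11.15, numpy 2.4.6, pandas 2.3.3, scipy 1.17.1 and matplotlib 3.10.9 were used. Alternatives were other pseudocounts, filters, scalings and thresholds, and recovered reads.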

Additional observations from a re-analysis of the deposited data

How the results depend on the processing

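No paired analysis was possible because each group held 1 library, and for the same reason no library could be left out. The count of members at least 2-fold higher, 7 as reported, was 1 with a pseudocount of 5 and 1 with a filter at 5 RPKM, where Nkd1 was the member counted. It was 10 with a pseudocount of 0.1 or on recovered reads with 0.5 added, which brought in Wnt11, Wnt9a and Fzd1. It was 5 with trimmed-mean scaling, upper-quartile scaling or centring on the median, each of which left out Rspo1 and Dkk3, 6 where the counting interval had to lie wholly past 2-fold, 11 at a threshold of 1.5-fold and 0 at 4-fold. The count of members at least 2-fold lower, 0 as reported, was 1 with upper-quartile scaling, where Ctnnb1 crossed the line, and 5 at 1.5-fold. No log2 ratio of a member that passed the filter changed sign under another pseudocount, filter or scaling, or on recovered reads. The median of the members was between 0.19 and 0.32 except with a filter at 5 RPKM, where it was -0.13 over 20 members. Over all genes, the counts of 1153 higher and 802 lower were 370 and 190 with a pseudocount of 5, 687 and 419 with a filter at 5 RPKM, 2383 and 1978 at 1.5-fold, 204 and 75 at 4-fold, and 767 and 456 by the interval. The lower count was 1247 with a pseudocount of 0.1 and 1282 on recovered reads. Depth limits the 13 members below 1 RPKM, which had at most 12 reads in a library.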
